A study of Mus musculus with 10 samples.

Results

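Among 20530 protein-coding autosomal genes in the count table of these mouse sarcomas, 22 were on in every dFLEx library and silent in every KP library. Silent meant 3 or fewer raw counts in each of the 3 KP libraries. On meant at least 0.5 CPM (counts for every 1000000 counts in the library) in each of the 6 dFLEx libraries, a level that 12424 genes reached. The 22 genes were therefore 0.177% of the genes on in dFLEx tumors. They were chosen by these measured values, so the difference between the groups in each of them is a description and carries no test.

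The study modelled CIC::DUX4 sarcoma, an aggressive soft tissue tumor. The dFLEx tumors came from mice of genotype dFLEx CDS +/-, which carry an inverted, HA-tagged CIC::DUX4 knock-in at Rosa26 that needs both Cre and FLPE recombinase, given as pCAG-Cre and pCAG-FLPE plasmids electroporated into hind limb muscle. The KP tumors were sarcomas of a p53fl/fl genotype that also carries an oncogene allele switched on by Cre, which removes p53 as well, so that oncogene, tumor suppressor status and model all differ between the groups. Total RNA was rRNA-depleted, and the RNA of each tumor was divided into duplicate libraries, which leaves 3 dFLEx tumors (170019, 170024 and 170025) and 2 KP tumors (3800 and 3802) as the biological replicates. For tumor 3802 only 1 library was analysed here, and the labels give no age for the mice.

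CIC is an HMG-box transcriptional repressor that binds a short octamer near genes such as the PEA3 family factors Etv1, Etv4 and Etv5, and it is released from them when ERK signaling is active. Fusion to the C-terminal part of DUX4, which recruits histone acetyltransferases, turns the protein into an activator of genes that CIC normally represses. DUX4 itself is a homeobox factor of the early embryo that is silent in healthy muscle.

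The transgene counts matched the labels of the tumors. The CIC_DUX4 feature averaged 89.3 CPM in tumor 170019, 192 CPM in 170024 and 409 CPM in 170025, with 0 counts in both libraries of KP tumor 3800 and 6 counts in the library of KP tumor 3802. Library totals ran from 20503474 to 46302223 counts, so the limit of 3 counts corresponded to between 0.0732 and 0.146 CPM in the KP libraries. Tumor 3802 stood apart from the other libraries. It had the lowest total but the most features with a count, 36904, and 64.3% of 1546 olfactory and vomeronasal receptor genes, which are normally used in sensory epithelium, had at least 1 count in it. That share was 5.43% and 7.44% in the libraries of 3800, and it ranged from 7.24% to 36.7% in the dFLEx libraries, with both libraries of tumor 170025 at the low end. Of those receptor genes, 51.6% had 3 or fewer counts in 3802, against 97.9% and 97.2% in the libraries of 3800. The part of the scattered reads in the size of the gene set was not tested. The rule found 95 genes without tumor 3802 and 66 without tumor 3800, sets that contain the 22 by construction.

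Most members were expressed at a low level. Mean CPM over the dFLEx tumors was 10 or more in 4 members, between 5 and 10 in 6, and below 5 in 12, with a median of 3.88 against 24.8 for all genes on in dFLEx. Across all KP libraries the 22 genes together collected 55 counts. Of these genes, 4 (Hcrtr1, Bpifb6, Gp9 and Adra2c) had no KP count at all, 9 were at 0 in both libraries of 3800 and 12 were at 0 in 3802. Because whole tumors were sequenced, fewer cells of a type and less RNA per cell cannot be told apart in any of these values. Intervals given below for the KP level are exact Poisson 95% intervals that cover counting error only, and both mates of a read pair were counted, so the true intervals are wider.

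**Figure D1:**
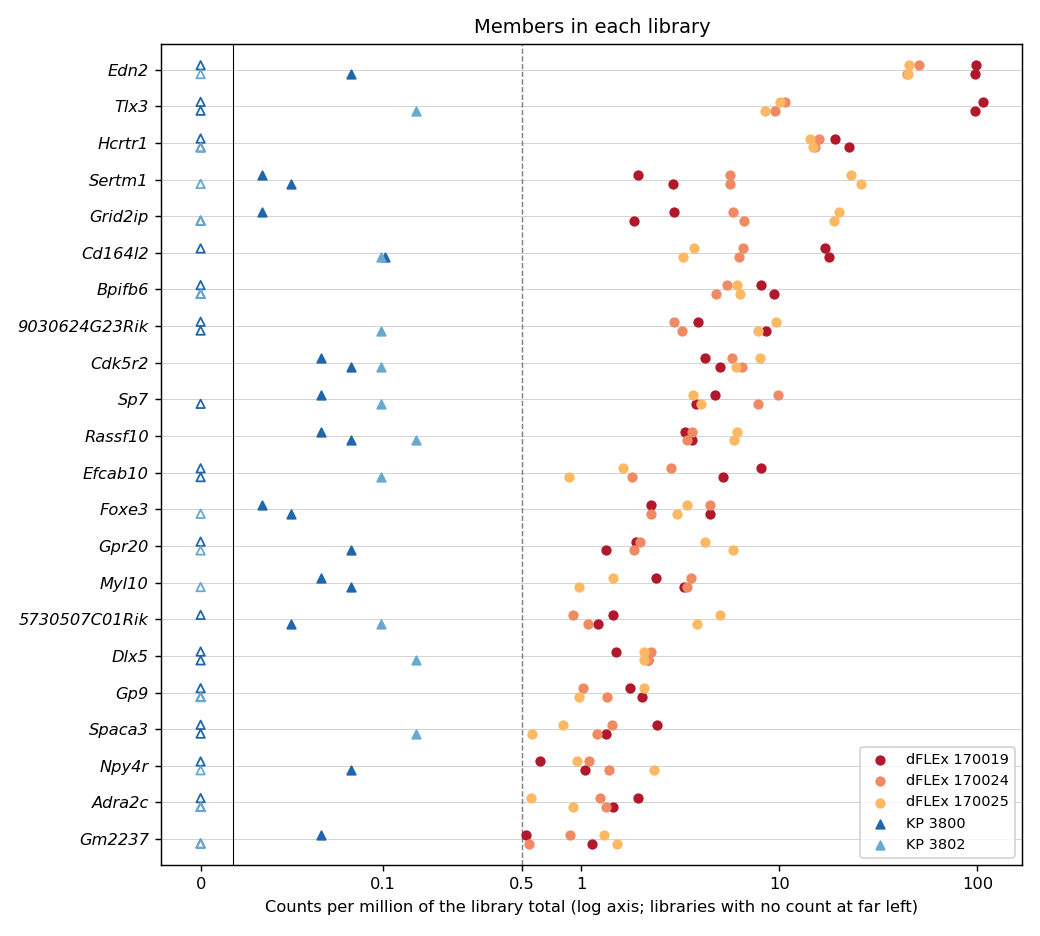
CPM of each of the 22 genes (rows, ordered by mean dFLEx level) in every library on a log axis, with circles for dFLEx and triangles for KP libraries, open triangles for libraries with no count and a dashed line at 0.5 CPM. Edn2, Tlx3 and Hcrtr1 lie farthest from the KP libraries, and Gm2237, Adra2c, Npy4r and Spaca3 reach down to the line.

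The strongest member was Edn2, which encodes endothelin 2, a vasoactive peptide ligand for the endothelin receptors. Its level was 98.2 CPM in tumor 170019, 47.5 in 170024 and 45.0 in 170025 (63.60 ± 30.01, SD, n = 3 tumors), and the KP libraries held 2, 0 and 0 counts. The rule itself places every dFLEx library of a member above every KP library. For Edn2 the mean was 2882 times the pooled KP level (interval 798 to 23797). That interval reflects the counting error of the 2 KP counts and not the spread between tumors. Edn2 was also the highest member per kilobase of exon, at 43.5 CPM per kilobase. The remaining genes of the endothelin system gave no call by edgeR's quasi-likelihood test on tumor sums with Benjamini-Hochberg adjustment. Edn1 had 2.21, 2.77 and 5.12 CPM in the dFLEx tumors and 1.503 and 4.487 in the KP tumors (log2 fold change 0.47, SE 0.76, adjusted p = 0.925), and Edn3 was at 0.536 CPM or less in every tumor. The receptors were present in both groups, Ednra at 9.93, 24.5 and 82.0 CPM against 34.2 and 9.75 (adjusted p = 0.868 by edgeR) and Ednrb at 6.48, 10.7 and 63.7 CPM against 9.49 and 7.17 (adjusted p = 0.626 by edgeR). For the converting enzyme Ece1 the dFLEx tumors measured 59.2, 61.7 and 124 CPM, and the KP tumors 113 and 70.9.

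Among the receptors, Hcrtr1 was the most abundant. It encodes the orexin 1 receptor, a G protein-coupled receptor best known from neurons of the wake-promoting circuit. Hcrtr1 measured 20.8, 15.5 and 14.5 CPM in tumors 170019, 170024 and 170025 (16.9 ± 3.39, SD, n = 3), with no count in any KP library. Its largest and smallest tumor differed only 1.43-fold, and against the limit of 3 counts in the shallowest KP library (0.146 CPM) its level was at least 116-fold higher. The peptide gene Hcrt and the sister receptor Hcrtr2 were close to absent, Hcrt with at most 0.293 CPM and Hcrtr2 with at most 0.634 CPM in any tumor, both of these maxima being in KP tumor 3802.

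Gpr20, an orphan G protein-coupled receptor known from gastrointestinal stromal tumors and interstitial cells of Cajal, had 1.61, 1.91 and 5.03 CPM in tumors 170019, 170024 and 170025, and KP counts of 2, 0 and 0. Npy4r, the pancreatic polypeptide receptor, had 0.833, 1.24 and 1.64 CPM in the same tumors, with KP counts of 2, 0 and 0. Adra2c, an adrenergic receptor for noradrenaline and adrenaline, had 1.70, 1.28 and 0.733 CPM and no KP count, which made it at least 8.46-fold higher. These 3 receptors were low in every dFLEx library, and the duplicates of Npy4r differed by up to 2.46-fold, the largest difference between duplicates among the members. Other adrenergic receptor genes did not share the pattern of Adra2c, since Adra2a measured 17.7, 13.9 and 27.2 CPM in dFLEx and 13.27 and 13.02 in KP tumors (edgeR log2 fold change 0.87, SE 0.60, adjusted p = 0.778).

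The transcription factor members were Tlx3, Sp7, Dlx5 and Foxe3. Tlx3, a homeobox factor of sensory and hindbrain neurons that is activated by translocation in T cell leukemia, showed the largest spread of all members. It measured 102 CPM in tumor 170019 but 10.1 in 170024 and 9.27 in 170025, with KP counts of 0, 0 and 3. The duplicates of each tumor agreed to within 1.18-fold, so the 11.004-fold difference between tumors was far larger than that between duplicate libraries. The lowest dFLEx library had 8.49 CPM, where the rule asked for 0.5 CPM.

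Sp7, the zinc finger factor osterix that is needed for osteoblast formation, had 4.28, 8.83 and 3.85 CPM and KP counts of 0, 2 and 2. Dlx5, a distal-less homeobox factor of branchial arch and bone, was even across tumors at 1.84, 2.22 and 2.07 CPM, with KP counts of 0, 0 and 3. Foxe3, a forkhead factor of the lens, was the most even member, with 3.36, 3.36 and 3.22 CPM and KP counts of 1, 1 and 0. Its duplicates differed more than its tumors did, by up to 1.99-fold, so no order of the tumors could be read for Foxe3.

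Genes with the same name root, termed relatives here, were compared with the members. A shared root is a match of letters and need not mean a shared family or function. The root Gpr gave 74 relatives for Gpr20, and the root Cdk gave 27 for Cdk5r2. For the 15 members of highest level the roots gave 147 relatives, of which edgeR tested 122 and called 2 higher and none lower in dFLEx tumors, while 25 had an unadjusted p under 0.05, as did 2617 of all 24743 genes tested. For the remaining 7 members, examined after the values had been seen, 16 of 21 relatives were tested and none was called, with 1 at an unadjusted p under 0.05. Across the whole table edgeR called 0.101% of 24743 tested genes higher and 0.0808% lower in dFLEx, so few calls were available in any group. The relatives called were Tlx1 and Gpr3. Tlx1, a sister homeobox factor of Tlx3, had 57.0, 51.4 and 114 CPM in the dFLEx tumors and 0.0732 and 0.439 CPM in the KP tumors (log2 fold change 8.61, SE 1.11, edgeR adjusted p = 0.0480). It missed the rule because of 6 counts in a library of 3800 and 9 in that of 3802. The call of Tlx1 was lost when any of tumors 170019, 170024, 170025 or 3800 was left out and with library totals in place of TMM, with adjusted p up to 0.183 over all alternatives, and the log2 fold change stayed between 7.94 and 9.94.

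Other genes with the name root of a member differed from the members in level. Tlx2 was at 0.3902 CPM or less in every tumor. Of the distal-less genes, Dlx6, which lies beside Dlx5, had 0.798, 0.581 and 0.0774 CPM in dFLEx and 0.0343 and 1.32 CPM in KP tumors (edgeR log2 fold change -0.04, SE 1.66, adjusted p = 0.996), and Dlx3 had 0.125, 0.445 and 0.220 CPM against 2.43 and 1.66 CPM. Grid1 is a delta glutamate receptor gene that shares a name root with the scaffold protein gene Grid2ip. Grid1 did not exceed 0.266 CPM in any dFLEx tumor and measured 29.4 and 5.07 CPM in the KP pair (edgeR log2 fold change -5.98, SE 0.94, adjusted p = 0.0744).

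**Figure D2:**
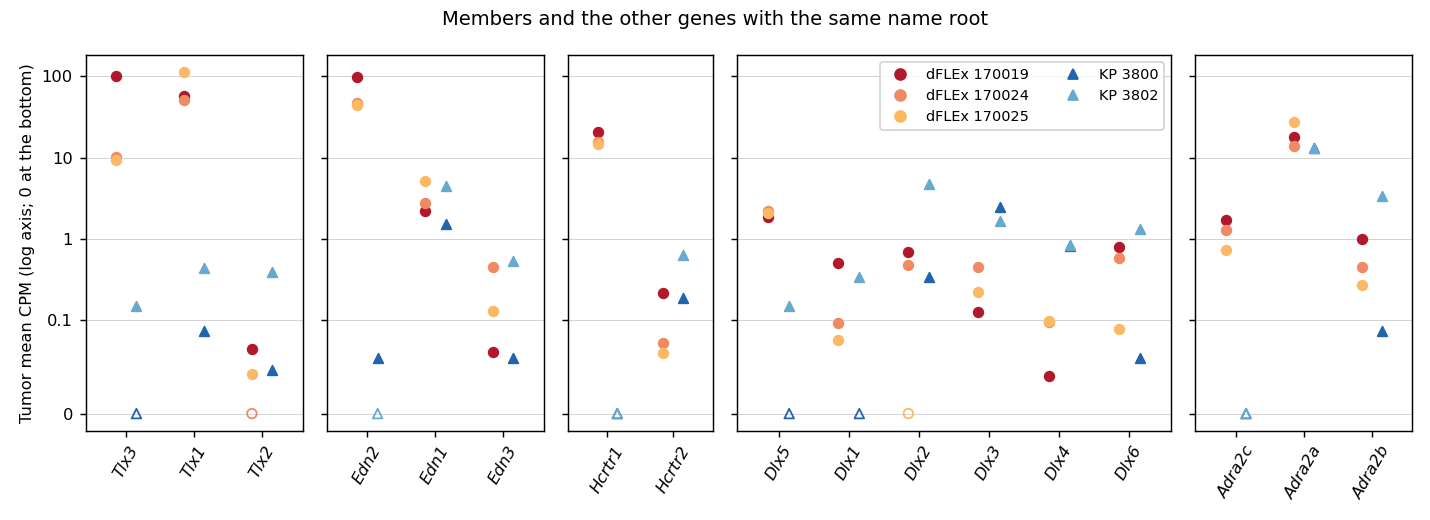
Tumor mean CPM of Tlx3, Edn2, Hcrtr1, Dlx5 and Adra2c beside the other genes that share the first letters of their names, with circles for dFLEx and triangles for KP tumors on a log axis and open symbols at the bottom for 0. Tlx1 shows the same separation of the groups as Tlx3, while Edn1 and Dlx6 overlap between the groups, Dlx3 and Dlx4 lie higher in KP tumors, and Adra2a lies above 10 CPM in every tumor of both groups.

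Grid2ip encodes delphilin, a postsynaptic scaffold protein of Purkinje cell synapses. It measured 2.40, 6.24 and 19.4 CPM in tumors 170019, 170024 and 170025, with a single KP count, in tumor 3800. Cdk5r2 encodes p39, an activator of the neuronal kinase Cdk5, and had 4.62, 6.11 and 7.04 CPM with 2 counts in each KP library. Sertm1, a small transmembrane protein gene, measured 2.42, 5.65 and 24.6 CPM and had 1 count in each library of 3800. The dFLEx tumors were fully separated from each other in all 3 comparisons for Grid2ip and Sertm1, since no duplicate of one tumor overlapped another tumor. None of the members was on the list of general neuron markers. Of 18 neuron markers none was called higher, and the neurofilament gene Nefl was lower in dFLEx tumors, at 0.209, 0.194 and 0.637 CPM against 190 and 58.5 CPM (edgeR log2 fold change -8.24, SE 0.98, adjusted p = 0.0463). The summed level of the neuron list was 39.03 to 93.59 CPM in dFLEx and 300.0 and 903 CPM in KP tumors.

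The other members had mixed roles. Bpifb6, a lipid-binding protein of the BPI fold family, had 8.72, 5.12 and 6.26 CPM with no KP count, at least 45.8-fold above the limit, while its neighbour Bpifb3 had 0.564, 0.630 and 0.557 CPM against 0 and 0.488 CPM. Rassf10, of the Ras association domain family, had 3.49, 3.53 and 6.04 CPM and KP counts of 2, 2 and 3. Efcab10, an EF-hand gene, had 6.66, 2.33 and 1.24 CPM, with KP counts of 0, 0 and 2. Spaca3, a lysozyme-like acrosome protein of sperm, had 1.88, 1.31 and 0.685 CPM, with 3 counts in tumor 3802 and none in 3800. Of the germ cell markers 8 of 14 were tested and none was called by edgeR.

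Myl10, a regulatory myosin light chain, had 2.85, 3.51 and 1.21 CPM and KP counts of 2, 2 and 0. Skeletal muscle markers summed to 9027, 36035 and 10309 CPM in the dFLEx tumors and 2367 and 6889 CPM in the KP tumors, and none of 23 was called by edgeR, with 15 higher and 8 lower. Both Myl10 and the muscle sum were highest in tumor 170024, and the part of muscle in the Myl10 level was not tested. Gp9 encodes glycoprotein IX of the platelet receptor for von Willebrand factor. It had 1.89, 1.19 and 1.52 CPM and no KP count, at least 10.5-fold above the limit. A list of 9 platelet and megakaryocyte genes, added after Gp9 had been seen, summed to 46.3, 46.9 and 32.5 CPM in dFLEx and to 20.55 and 129.1 CPM in KP tumors. None of its 8 tested genes was called by edgeR, and its defining gene Gp1bb was at 0 in every library.

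Several members have reads that could belong to another gene, since counting did not use strand. Cd164l2, a sialomucin-like gene, had 17.4, 6.42 and 3.49 CPM and KP counts of 3, 0 and 2, but it overlaps Gpr3 on the opposite strand. Gpr3, a constitutively active receptor that raises cAMP, had 29.9, 23.8 and 33.4 CPM in dFLEx and 0.352 and 0.195 CPM in KP tumors (edgeR log2 fold change 6.96, SE 0.84, adjusted p = 0.0463). That call was also lost when tumor 170019, 170024, 170025 or 3800 was left out. The levels of Cd164l2 and Gpr3 ran in different orders over the dFLEx tumors, since Cd164l2 was highest in 170019 and Gpr3 in 170025. Grid2ip overlaps a feature with no name in GENCODE on the opposite strand, which had 0.566 CPM or less in every tumor, and Cdk5r2 overlaps the long noncoding RNA Gm16582 on its own strand, which had 0.165 CPM or less in dFLEx tumors and up to 1.76 CPM in KP tumors.

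The predicted genes 9030624G23Rik, 5730507C01Rik and Gm2237 are uncertain in another way. Reads that mapped to more than 1 place were dropped in counting, which can lower a count in either group. Of the distinct stretches of 50 bases in their annotated transcripts, 43.0%, 26.2% and 84.1% respectively also occurred in transcripts of other genes, against 0% in Edn2, Tlx3, Bpifb6, Cdk5r2, Rassf10 and Foxe3. Efcab10 shared 22.5%. 9030624G23Rik had 6.20, 3.09 and 8.73 CPM, 5730507C01Rik had 1.33, 0.999 and 4.42 CPM, and Gm2237, the lowest member, had 0.830, 0.709 and 1.41 CPM.

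The members near the limits of the rule were close to genes outside it. On the dFLEx side, the lowest library was 0.529 CPM for Gm2237, 0.558 for Adra2c and 0.562 for Spaca3. The first genes outside were Igsf21 (0.438 CPM), Tmem59l (0.391) and Crygn (0.389). On the KP side, 5 members (Tlx3, Cd164l2, Rassf10, Dlx5 and Spaca3) had 3 counts in a library, and 7 further genes on in dFLEx had a maximum of 4. The most abundant of those 7 were Nkpd1 (44.1, 24.6 and 28.6 CPM, KP counts of 4, 2 and 0), Dpysl5 (7.06, 3.82 and 14.4 CPM, counts of 0, 4 and 0) and Chrna4 (0.653, 3.13 and 6.78 CPM, counts of 2, 0 and 4). Nkpd1 was among the edgeR calls (log2 fold change 9.37, SE 1.21, adjusted p = 0.0480), although the call was lost when 170019, 170024, 170025 or 3800 was left out. Other genes were as abundant and fell just outside through 3802 alone. Cckar, the cholecystokinin A receptor, had 28.05, 37.59 and 41.49 CPM with KP counts of 0, 2 and 8, and Atp4a, the gastric proton pump subunit, had 18.2, 19.1 and 21.8 CPM with counts of 2, 0 and 8.

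**Figure D3:**
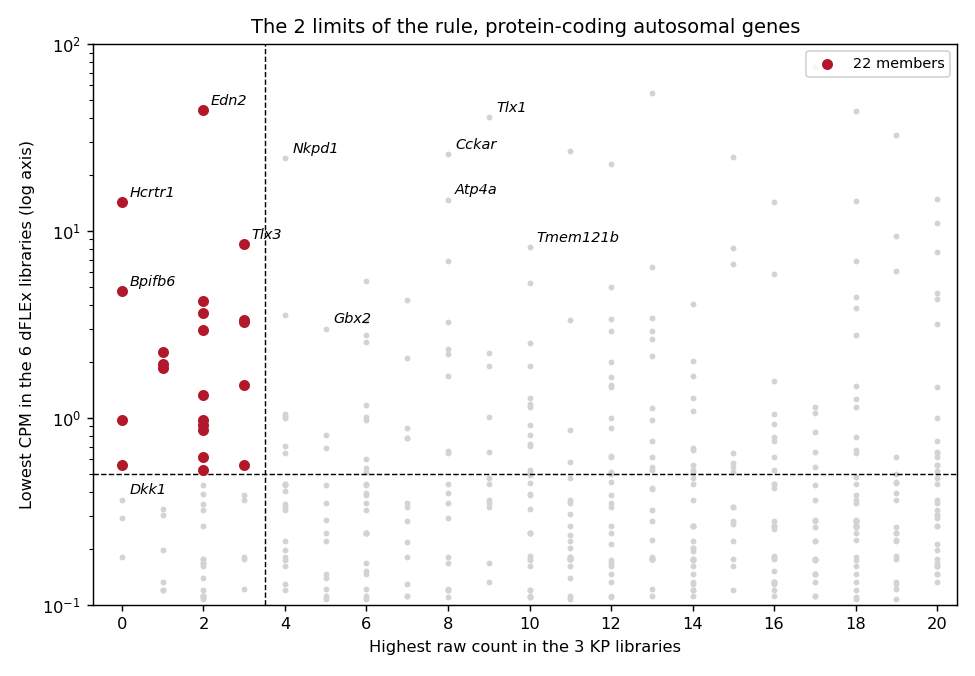
Highest raw count in the KP libraries against the lowest dFLEx CPM (log axis) for protein-coding autosomal genes, with the limits of the rule as dashed lines and the 22 members in red. Genes such as Nkpd1, Tlx1, Cckar and Atp4a lie as high as the strongest members and to the right of the KP limit.

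The order of the members over the dFLEx tumors was set against the transgene, which was lowest in 170019 and highest in 170025. Of the 22 genes, 6 (Sertm1, Grid2ip, Cdk5r2, Rassf10, Gpr20 and Npy4r) had the same order, 27.3%, and 8 (Edn2, Tlx3, Hcrtr1, Cd164l2, Efcab10, Foxe3, Spaca3 and Adra2c) ran in the reverse order by their tumor means, 36.4%. Not every order held beyond the duplicates. All 3 pairs of tumors were separated only in Sertm1 and Grid2ip of the first group and in Hcrtr1, Cd164l2, Efcab10 and Adra2c of the second. In Foxe3 no pair was separated, and in the rest of both groups, such as Edn2, Tlx3 and Npy4r, only some pairs were. Among all 12424 genes on in dFLEx, 51.8% followed the order of the transgene and 17.4% the reverse order. With CPM scaled by the trimmed mean of M values (TMM), 18.2% of members and 39.8% of all on genes followed the transgene. Only 3 dFLEx tumors give an order here, and the tumors also differ in scattered reads, which were fewest in 170025. The ratio of the highest to the lowest tumor had a median of 2.31 in the members and 2.34 in all on genes, and it exceeded 5 in 4 members (Tlx3, Sertm1, Grid2ip and Efcab10) and stayed under 2 in 9.

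**Figure D4:**
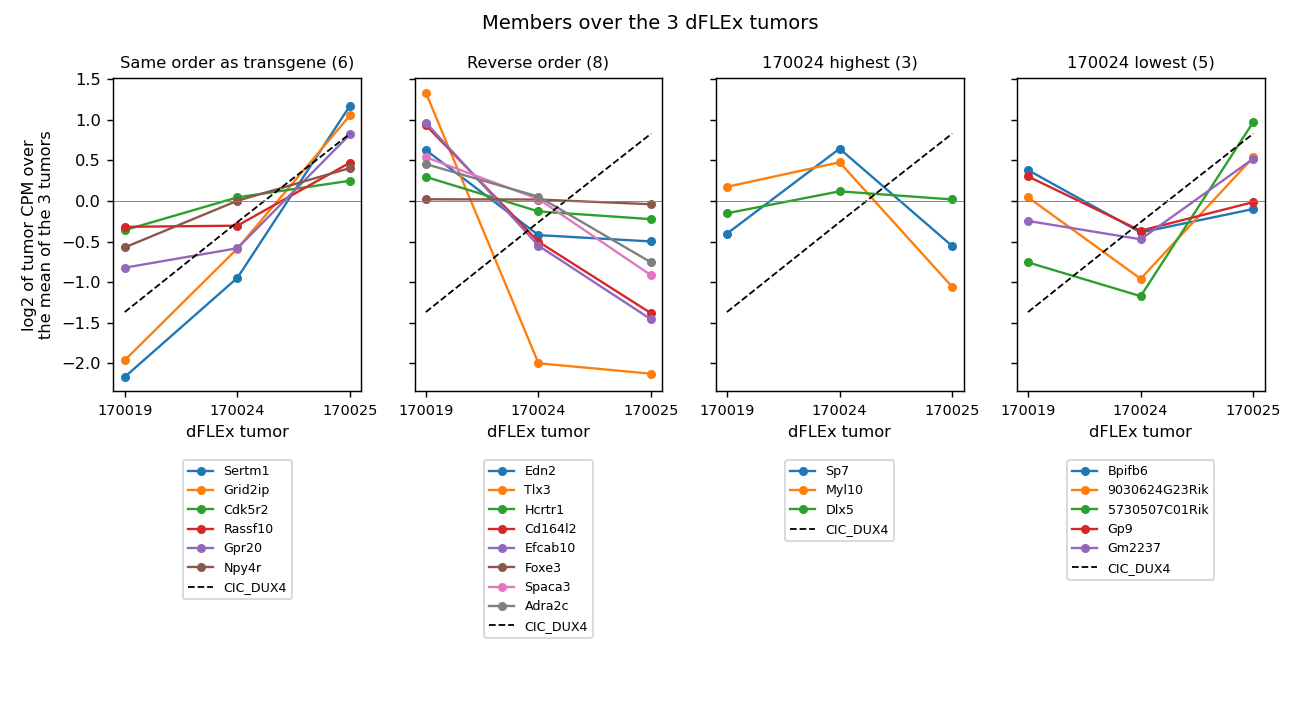
Each member's CPM in the 3 dFLEx tumors on a log2 scale relative to its own mean, split by the order of the tumors, with the CIC_DUX4 transgene as a dashed line. Sertm1 and Grid2ip follow the order of the transgene over a wider range than its own, and Tlx3 is high in tumor 170019 only.

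By the patterns of gene symbols, 4 of 22 members (18.2%) were transcription factors and 4 (18.2%) were G protein-coupled receptors, where 1.83% and 1.09% of all genes on in dFLEx carried such symbols. No test was made of these shares. Median level was 3.88 CPM in the members against 24.8 CPM in all on genes, and the rule made the members silent in KP. The sets compared in this paragraph were therefore not matched in level or in silence in KP. The members had short genes, with a median of 2195 bases of exon against 4529 for all on genes and a median genomic span of 8.82 kb against 24.6 kb, and 4 of 22 (18.2%) had a single exon entry, compared with 1.70% of all on genes. The 73 genes on in dFLEx that were silent in tumor 3800 but not in 3802 had a median exon length of 3164 bases. The part of length in the membership was not tested.

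Marker lists for other cell types were checked beside the members. Of 23 lists, 17 gave no edgeR call. The endothelin and orexin lists had 1 call each, on a member (Edn2, Hcrtr1) that the rule had chosen by this same contrast. Osteoblast markers, which include the member Sp7, gave 1 call among 11 tested, Alpl (49.4, 58.8 and 30.6 CPM against 0.553 and 1.07). The fitted changes of the 11 were higher in dFLEx in 6 and lower in 5. Sp7 is among the 6 and in the median below, and its direction was set by the rule. Chondrocyte markers gave 2 calls among 19 tested, Cytl1 and Acan, and simple epithelium markers gave 1 call higher (Elf3) and 2 lower (Krt8 and Krt18). Their median log2 fold changes were 0.64, 4.25 and -1.41, against -0.18 for all tested genes. The 14 genes of the ERK feedback and PEA3 list were all tested and none was called, with a median log2 fold change of 2.43 and 12 of 14 higher. None of the 22 genes was on the published consensus list of CIC::DUX4 target genes. That list has 235 symbols, of which 221 were on in dFLEx. It covers only those 221 of the 12424 genes on in dFLEx, so an absence from it says little about 22 genes. Among the 221 the lowest KP maximum was that of Crh, with up to 10 counts.

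The genes came from 11 chromosomes. Coordinates below are in GRCm39 as deposited, except those marked GRCm38.p6. Edn2 lies at chr4:120018403-120024557, Hcrtr1 at chr4:130024010-130033152, Foxe3 at chr4:114782344-114783210 and Cd164l2 at chr4:132939442-132951866, a span of 18.2 Mb. The other 249 tested protein-coding genes of that span had a median log2 fold change of 0.10 and 1 call higher, and the span held 1.72% of all genes on in dFLEx. Tlx3 lies at chr11:33150752-33153589. No member had another member within 20000 bases, and of 15 tested protein-coding neighbours within that distance edgeR called 1 higher, Gpr3, and none lower.

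The promoters of the members were searched for the CIC octamer in its forms TGAATGAA, TGAATGGA, TCAATGAA and TCAATGGA, on both strands. In RefSeq windows that reach from 250 bases before to 50 bases after each annotated start (GRCm38.p6), 16 of 22 members had a window and 2, Hcrtr1 and Myl10, held an octamer, 12.5%. Among all protein-coding autosomal genes with a window the share was 3.46%, and among genes on in dFLEx it was 2.85%. Hcrtr1 held the form TGAATGGA in 2 of its windows, at -158 and -91 from an annotated start. Myl10 held TGAATGAA as its reverse complement, with the first base at -1. Counted from the gene start in the deposited GRCm39 coordinates, octamers of the same form and orientation lie downstream. They are 39 and 717 bases after the start in Hcrtr1 and 529 bases after it in Myl10. In Hcrtr1 the octamers have the same spacing in both builds, so they are read as the same sites counted from different starts. The stretches from the RefSeq windows are shown because they hold the only octamers within those windows. The octamer is in capitals and the sequence is on the strand of the gene.
Hcrtr1, chr4:130139302-130139331, GRCm38.p6, minus strand: cagtggacgcgTGAATGGAggtggatggaa
Hcrtr1, chr4:130138624-130138653, GRCm38.p6, minus strand: ggccggatttaTGAATGGAgagcggcctgc
Myl10, chr5:136693664-136693693, GRCm38.p6, plus strand: catgtctccgtTTCATTCAgtcaaaaaccc

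In windows of 1000 bases either side of the gene start in GRCm39, chosen after the values were seen, 9 of 22 members (40.9%) held an octamer, against 22.4% of all genes on in dFLEx and 25.5% of all protein-coding autosomal genes. Upstream of the start there were octamers in Sp7, Sertm1 and Gp9 at -21, -462 and -709, shown here because they lie before the start.
Sp7, chr15:102275620-102275649, GRCm39, minus strand: gtttgtctgtgTTCATTCAtcatagtgaca
Sertm1, chr3:54823752-54823781, GRCm39, minus strand: ccatggttctaTTCATTCAttagatggttt
Gp9, chr6:87754334-87754363, GRCm39, plus strand: tctgctaaaaaTCCATTGAtttggttaata

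Edn2, Tlx3 and Grid2ip had none in the RefSeq windows. In the wider GRCm39 windows Edn2 held TCAATGAA as its reverse complement, 399 bases after the start, while Tlx3 and Grid2ip again had none. Of the genes with a RefSeq window, 18.8% of members and 30.5% of genes on in dFLEx held the ETS core CCGGAA in at least 1 window. For TATAAA the shares were 0% and 8.80%. The promoters of members held a median of 9 CpG dinucleotides, against 22 for all genes on in dFLEx. A match is only a match of letters, and no binding was measured here.

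The rule was also run with the groups exchanged, which asked for genes on in KP tumors and silent in all dFLEx libraries. It found 11 of 12789 genes on in KP, 0.086%. These were Rspo4, Grp, Speer4b, Prl2c3, Gad2, Clrn1, Gm8104, Cldn6, Il1a, Calcb and Bnc1, with Rspo4 at 32.9 CPM in tumor 3800 and 7.41 CPM in 3802 the most abundant. The exchanged set had to be silent in 6 libraries rather than 3, so the sizes of the sets do not compare like with like.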

How the data were processed

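Gene-level read counts of 9 libraries were taken as deposited. According to the labels and the file header, the authors trimmed reads with Trimmomatic 0.39, aligned them with STAR 2.7.10a to mm39 with the transgene added, and counted them with featureCounts of Subread 2.0.3, per read and without strand. Of 56750 features, 56017 were named from GENCODE mouse release 39. The gene set and the marker lists were chosen with earlier results of these data known. CPM was taken on library totals (20503474 to 46302223 counts). The duplicate libraries of a tumor were summed, and dFLEx and KP tumors were compared with edgeR 4.0.16 (R 4.3.3; glmQLFit and glmQLFTest, TMM, filterByExpr, Benjamini-Hochberg adjustment, threshold 0.05). On simulated data the fit missed many genes with large fold changes, so a gene without a call is not shown to be equal between the groups. DESeq2 1.42.0 was an alternative. P-values measure the spread between tumors. Named were all members by level (the 15 highest), level per kilobase (5 more), tumor ratio (5 largest and 5 smallest), list membership, distance from the limits, and relatives. Sequences are from RefSeq (GRCm38.p6) and GRCm39. No protein sequences were used. Some items are not reported here.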

Additional observations from a re-analysis of the deposited data

How the results depend on the processing

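The number of members, 22, was 22 with TMM-scaled CPM and on any chromosome, 29 after thinning every library to the lowest total (20 of the 22 among them), 32 with any biotype and 33 at a minimum of 0.25 CPM. It was 4 and 7 at KP limits of 0 and 1 counts, 42 and 74 at limits of 6 and 10 counts, 14 and 3 at minima of 1 and 5 CPM, 36 with the first library of each tumor, 11 with the groups exchanged, and between 23 and 95 when 1 tumor was left out (95 without tumor 3802, 66 without tumor 3800). The edgeR count of 45 calls was 34 with library totals and 49 with DESeq2 size factors, 880 without the filter on low counts, 1404 with DESeq2 on tumor sums (797 higher and 607 lower), 3344 with libraries as independent samples, and between 0 and 414 when 1 tumor was left out (0 without 170019 or 170024, although edgeR gave unadjusted p below 0.05 to 1939 and 1414 genes there and DESeq2 on all tumors made 1404 calls, and 414 without 3802). With the duplicate number as a replicate block it was 2476. The duplicate numbers divide the RNA of a tumor and pair no tumors, so the block treats duplicates as samples, as the independent fit does. The share of members in the order of the transgene was 27.3%, 18.2% with TMM, and 0% among the 4 members of at least 5 CPM in every dFLEx tumor. Of those 4 members, 3 ran in the reverse order. Among all 9258 on genes at that level, 51.5% followed the transgene and 19.6% ran in the reverse order. The share with an octamer was 12.5% with 2 forms as with 4, and 40.9% in the wider windows added after the data were seen. Members with few counts rest on as few as 12 counts in a library.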
